A study of Cavia porcellus with 44 samples.

Results

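Liver RNA levels of 5 genes, ALB, OTC, RNASE4, ZBTB20 and PLXNB3, were followed across 44 female Hartley guinea pigs. The 5 genes were chosen by values of these same libraries, taken here to be a wide spread between animals on the same diet and their correlation with each other, out of 11731 gene symbols in the count table, of which 7629 had enough counts to be tested. Those 2 patterns are therefore given below as descriptions without a test. The differences between groups were known too, so the adjusted p values of these genes are not independent of the choice. All animals were euthanized after 32 weeks. LFH animals (n = 8) received low fat feed with high vitamin C (vitC) throughout, and HFH animals (n = 8) high fat feed, which also held cholesterol and sucrose, with high vitC throughout. The other 4 groups shared a first period of 16 weeks on high fat feed with low vitC. For the remaining 16 weeks HFL/HFL (n = 10) stayed on this feed, HFL/HFH (n = 6) changed to high fat with high vitC, HFL/LFL (n = 6) to low fat with low vitC, and HFL/LFH (n = 6) to low fat with high vitC. Feed of each low fat group was matched to the intake of a high fat group, LFH to that of HFH, HFL/LFH to that of HFL/HFH and HFL/LFL to that of HFL/HFL. The labels mark no animals as littermates, and every animal gave 1 library from the left lateral lobe.

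ALB encodes albumin, the main protein that hepatocytes secrete into plasma. OTC encodes ornithine transcarbamylase, a mitochondrial enzyme of the urea cycle, by which the liver disposes of ammonia. RNASE4 encodes a small secreted ribonuclease of the ribonuclease A family. ZBTB20 is a zinc finger transcription factor of the liver and other tissues, known as a repressor of alpha-fetoprotein, the fetal counterpart of albumin. PLXNB3 is a plexin, a cell surface receptor for semaphorins, and is not known as a hepatocyte gene. Hepatocytes make up most of the liver mass, and albumin and urea synthesis are measures of hepatocyte function. In guinea pigs, as in humans, vitC must come from the feed.

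The total count per library, over rows with a symbol, ranged from 20562913 to 34551639 (median 25000400). Values below are read counts scaled by edgeR's effective library sizes (CPM). They are not corrected for gene length, so they compare animals and not genes. A count of 3, taken as the floor, equals 0.0641 to 0.174 CPM and covers counting error only. Of 6 hepatocyte markers chosen for checking the tissue, ALB and SERPINA1 were in the table. SERPINA1, encoding the plasma protease inhibitor alpha-1-antitrypsin, ran from 11608 to 46689 CPM over all animals, while TTR, APOA1, CPS1 and HNF4A were not analysed here. Animals of a group differed in the counts of at least 95.9% of tested symbols, so no library repeated another of its group.

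ALB was lower on the high fat feeds than on the low fat feeds in each of the 3 feed comparisons, with no overlap in CPM between the groups compared. It spanned 70532 to 176147 CPM in LFH (median 122026), 46800 to 166810 in HFL/LFH (median 139598) and 53654 to 133569 in HFL/LFL (median 92800). On high fat feed it spanned 8693 to 64208 CPM in HFH (median 41540), 20426 to 45361 in HFL/HFH (median 31366) and 14868 to 51464 in HFL/HFL (median 35249). The group means ± SD were 119941 ± 39411 in LFH and 39416 ± 22321 in HFH, a 3.04-fold lower level in HFH (log2 fold change -1.61, SE 0.33, edgeR adjusted p = 8.26e-05). ALB was 3.64-fold lower in HFL/HFH than in HFL/LFH (edgeR adjusted p = 0.000145, SE 0.38 around a log2 fold change of -1.87) and 2.66-fold lower in HFL/HFL than in HFL/LFL (-1.41, SE 0.33, edgeR adjusted p = 0.000635). By CPM, all 8 HFH, 6 HFL/HFH and 10 HFL/HFL animals were below every animal of the low fat group they were compared with. By unscaled share of a library's counts, ALB reached 7.09% in HFH, above the lowest LFH animal (6.11%). It reached 4.82% in HFL/HFH, above the lowest HFL/LFH animal (4.64%). HFL/HFL (highest 5.37%) and HFL/LFL (lowest 5.65%) stayed apart. Each of the 3 edgeR calls of ALB stood in all fits that left out 1 animal. In this bulk tissue, fewer hepatocytes and less ALB RNA per hepatocyte cannot be told apart. In the order of group means only the step from HFL/LFL down to HFL/HFL, 1.45 on the log2 scale, was wider than the spread within groups (0.689). The steps between groups on the same kind of feed were 0.03 to 0.20.

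PLXNB3 was low in all groups and was higher on high fat feed in 2 of the 3 feed comparisons. It spanned 1.17 to 14.8 CPM in LFH (median 4.84), 2.81 to 16.8 in HFL/LFH (median 6.72) and 2.29 to 12.6 in HFL/LFL (median 3.93). On high fat feed it spanned 3.73 to 55.3 CPM in HFH (median 16.0), 6.72 to 31.4 in HFL/HFH (median 18.1) and 2.18 to 56.8 in HFL/HFL (median 11.8). The ranges of the groups compared overlapped in every case. Mean CPM ± SD was 5.53 ± 4.54 in LFH and 23.8 ± 19.6 in HFH, a 4.29-fold higher level in HFH (edgeR adjusted p = 0.00187, SE 0.56 around a log2 fold change of 2.10), and the call stood in all 16 fits that left out 1 animal. Between HFL/HFL and HFL/LFL the log2 fold change was 1.49 (SE 0.60, edgeR adjusted p = 0.0443). This second call was lost without any one of 9 animals, HFL/HFL 52, 55, 75 and 81 and HFL/LFL 13, 17, 49, 53 and 68, with edgeR adjusted p up to 0.205, and without HFL/HFL 75 the log2 fold change was 0.88. Between HFL/HFH and HFL/LFH it was 1.31 (SE 0.63), which missed the threshold (edgeR adjusted p = 0.104) and passed it without HFL/LFH 33 (1.75, edgeR adjusted p = 0.0374). No neighbours in the order of PLXNB3 means differed by more than the spread within groups.

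Background for these counts is wide. Of the 5 genes, 2 were called between HFH and LFH, 1 between HFL/HFH and HFL/LFH and 2 between HFL/HFL and HFL/LFL, where 49.1%, 35.9% and 37.7% of all tested symbols were called. By direction, 27.5% of symbols were higher and 21.6% lower in HFH than in LFH, 19.4% higher and 16.5% lower in HFL/HFH than in HFL/LFH, and 19.6% higher and 18.1% lower in HFL/HFL than in HFL/LFL. Counts of 2, 1 and 2 of 5 are near these shares, and the number of calls is not a result about the 5 genes. The median log2 fold change over all symbols was at most 0.062 in these comparisons.

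**Figure D1:**
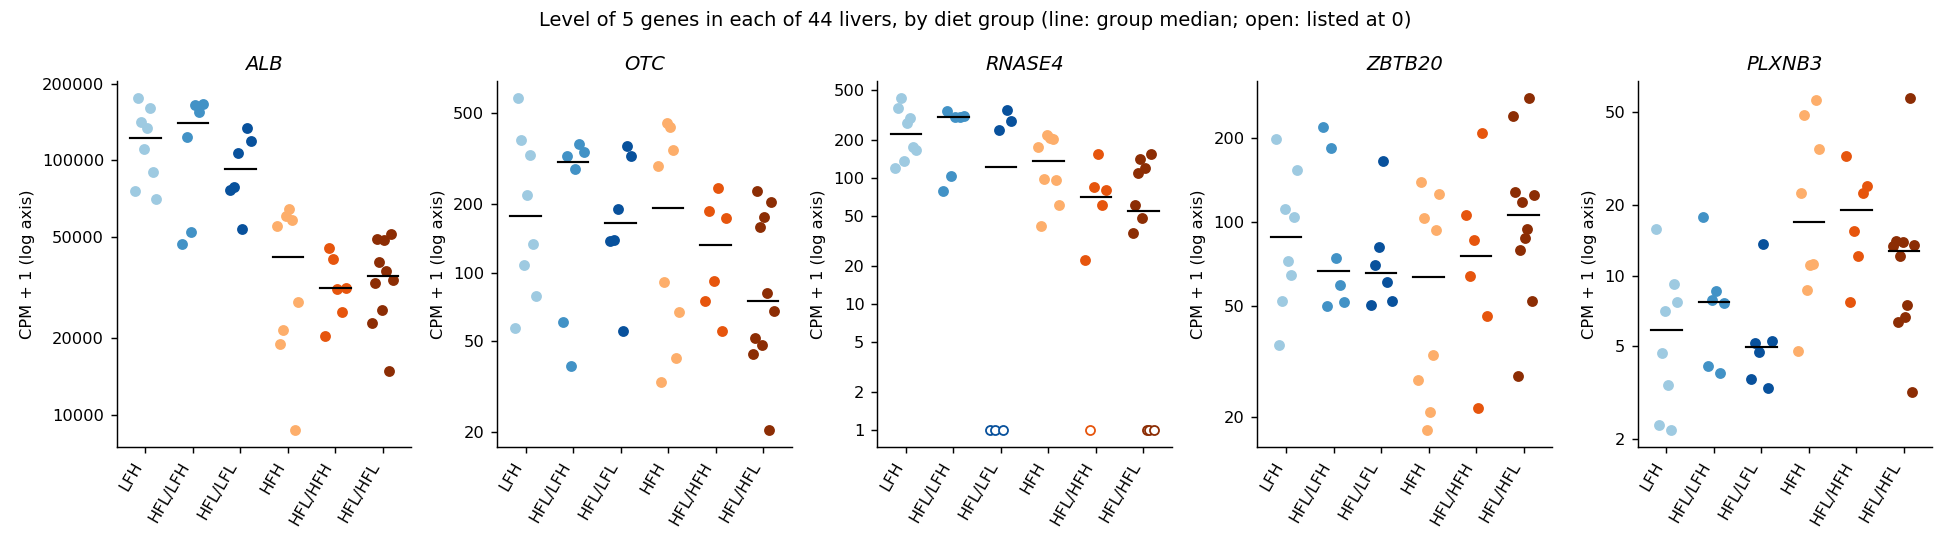
Level of each gene in each of the 44 animals as CPM + 1 on a log axis, by diet group, with low fat groups in blue, high fat groups in orange and brown, group medians as lines and libraries listed at 0 as open circles. ALB separates the feeds in each comparison, while OTC, ZBTB20 and PLXNB3 spread widely inside every group and RNASE4 is listed at 0 in 7 animals.

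Most of the variance of OTC lay inside the groups, and no difference between groups passed the test. It spanned 56.5 to 583 CPM in LFH (median 176), 38.1 to 363 in HFL/LFH (median 303) and 54.3 to 359 in HFL/LFL (median 164). On high fat feed it spanned 32.3 to 451 CPM in HFH (median 191), 54.6 to 233 in HFL/HFH (median 132) and 19.4 to 227 in HFL/HFL (median 73.8). Both LFH and HFH thus held animals near the top and near the bottom of the whole range. The highest LFH animal was 10.3-fold above the lowest, and the highest HFH animal 13.96-fold. The log2 fold change was -0.10 between HFH and LFH (SE 0.55, edgeR adjusted p = 0.891), with an interval of 2 SE from -1.19 to 0.99. It was -0.79 between HFL/HFH and HFL/LFH (SE 0.63, edgeR adjusted p = 0.355) and -0.90 between HFL/HFL and HFL/LFL (SE 0.55, edgeR adjusted p = 0.205). Set against ALB in the same animal, the log2 level of OTC minus that of ALB averaged -9.29 ± 0.71 in LFH, -7.79 ± 0.70 in HFH, -9.20 ± 0.63 in HFL/LFH, -8.00 ± 0.69 in HFL/HFH, -9.04 ± 0.49 in HFL/LFL and -8.59 ± 0.59 in HFL/HFL. The last 2 lay within their SDs of each other.

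RNASE4 was listed at exactly 0 in 7 animals and at 604 counts or more in the other 37. The animals at 0 were HFL/LFL 44, 49 and 53, HFL/HFH 20, and HFL/HFL 12, 75 and 93. A count of 0 in those libraries allows up to 0.106 to 0.136 CPM by the floor of 3 counts, counting error only. Of 3172 symbols with a median of at least 1000 counts, only RNASE4 and TREM2, a receptor of lipid-laden macrophages, held an exact 0, and TREM2 ran down to 2 counts in animals above 0 while RNASE4 did not. These 0s can be a failed estimate as well as a lack of RNA, and the files do not tell them apart. Of the other ribonuclease genes tested, RNASE6 and RNASE10 did not vanish in those 7 animals: RNASE6 had 1048 to 2824 counts there and 722 to 3408 in the other animals, and RNASE10 105 to 355 and 36 to 847. RNASE13, with a mean of 0.247 CPM, had 0 to 21 counts in the 7 and 0 to 20 in the other animals.

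RNASE4 otherwise spanned 119 to 430 CPM in LFH (median 222), 77.5 to 339 in HFL/LFH (median 301) and 40.8 to 215 in HFH (median 135), groups with no library at 0. Above 0 it spanned 240 to 344 CPM in 3 HFL/LFL animals, 21.3 to 154 in 5 HFL/HFH animals and 35.8 to 153 in 7 HFL/HFL animals. These 3 HFL/LFL animals lay above every HFL/HFL animal, while the other 3 were listed at 0. With all animals the log2 fold change was -0.84 between HFH and LFH (SE 0.99, edgeR adjusted p = 0.509), -1.85 between HFL/HFH and HFL/LFH (SE 1.17, edgeR adjusted p = 0.226) and -1.12 between HFL/HFL and HFL/LFL (SE 0.995, edgeR adjusted p = 0.395). That fit shares its estimate of spread over all groups, those with libraries at 0 included. Fitted on only the groups compared, edgeR adjusted p was 0.0513, 0.0899 and 0.518 in the same order, so none passed. Without the animals at 0 the differences of mean log2 CPM were -0.92, -1.63 and -1.78 in the same order, given without a test. Between HFL/LFL and HFL/LFH the fitted value with all animals was -0.72 and the difference without them 0.48.

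ZBTB20 showed no difference between groups that passed the test. It spanned 35.2 to 197 CPM in LFH (median 87.1), 48.7 to 217 in HFL/LFH (median 65.6) and 49.3 to 164 in HFL/LFL (median 64.2). On high fat feed it spanned 16.8 to 137 CPM in HFH (median 62.2), 20.4 to 207 in HFL/HFH (median 74.0) and 27.1 to 277 in HFL/HFL (median 105). All 6 ranges overlapped. The log2 fold change was -0.51 between HFH and LFH (SE 0.46, edgeR adjusted p = 0.385), -0.27 between HFL/HFH and HFL/LFH (SE 0.53, edgeR adjusted p = 0.737) and 0.63 between HFL/HFL and HFL/LFL (SE 0.49, edgeR adjusted p = 0.325). For OTC, RNASE4 and ZBTB20 no neighbouring groups in the order of means differed by more than the spread within groups.

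The comparisons of vitC levels and of former high fat groups with LFH called none of the 5 genes. Of all symbols, 0.223% were called between HFL/LFL and HFL/LFH, 0.0131% between HFL/HFL and HFL/HFH, 0.354% between HFL/LFH and LFH, and 7.73% between HFL/LFL and LFH. For the interaction of feed and vitC in the 4 groups with a changed or continued HFL feed, edgeR called 0.0% of symbols, with 629 at an unadjusted p under 0.05 and 3 called by DESeq2. Among the 5 genes none reached an unadjusted p under 0.05 in these 5 comparisons, and DESeq2 called none either. The log2 fold change of ALB between HFL/LFL and HFL/LFH was -0.32 (SE 0.37, edgeR adjusted p = 0.852), with an interval of 2 SE from -1.06 to 0.42. Its difference between HFL/HFL and HFL/HFH was 0.13 (interval -0.53 to 0.80), between HFL/LFH and LFH -0.02 (interval -0.72 to 0.68) and between HFL/LFL and LFH -0.34 (interval -1.04 to 0.36). OTC was within -0.34 and -0.01 in the same comparisons, ZBTB20 within -0.41 and 0.48, and PLXNB3 within -0.56 and 0.39. RNASE4 was within -0.75 and 0.003, with intervals from -3.00 to 2.09 over the 4 comparisons. The intervals of OTC, RNASE4, ZBTB20 and PLXNB3 reached past 1 on the log2 scale on one side or both in each of the 4, and that of ALB in HFL/LFL against HFL/LFH and against LFH, so a 2-fold difference lay inside them, with 6 to 10 animals a group.

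**Figure D2:**
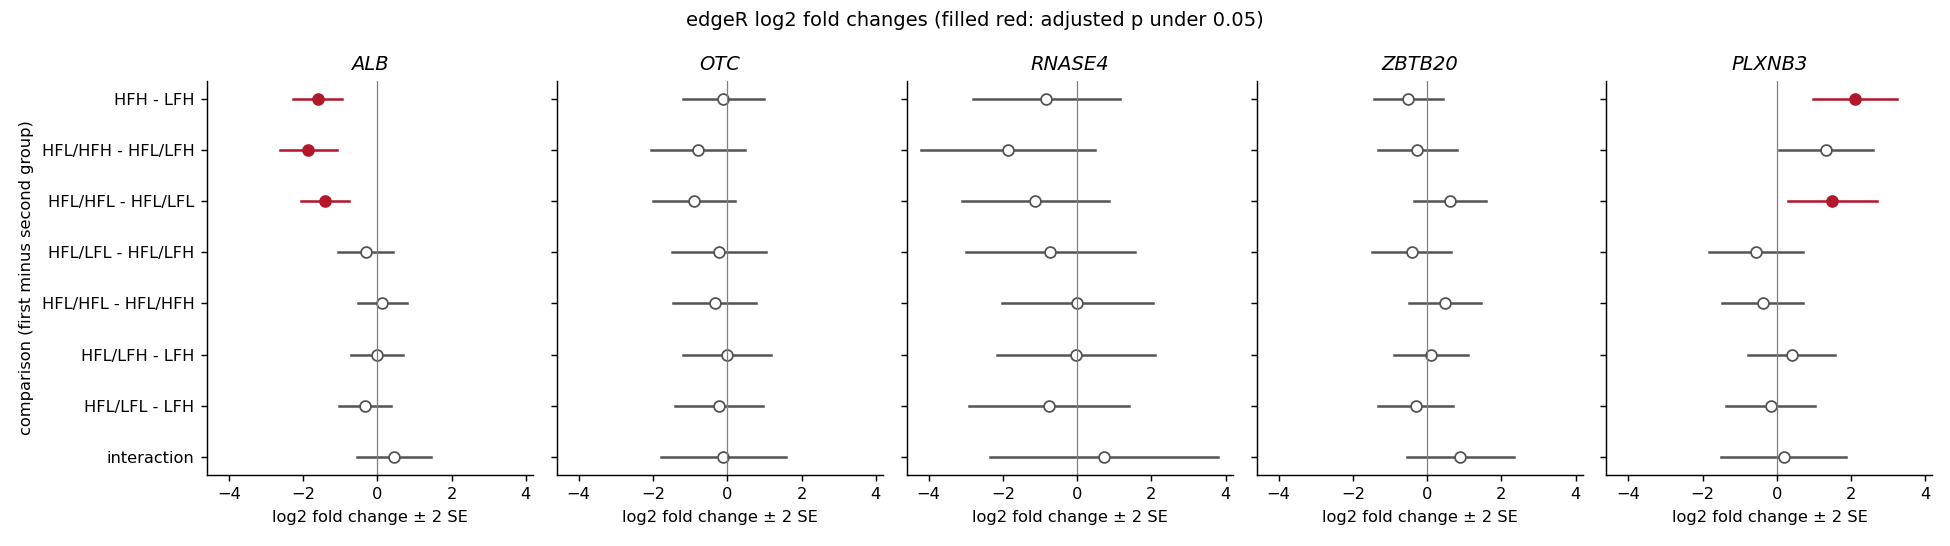
Log2 fold change of each gene in the 8 comparisons, first group minus second, with bars of 2 SE from the edgeR fit of all 44 animals; filled red points have an adjusted p under 0.05. ALB lies at -1.87 to -1.41 in the 3 feed comparisons, PLXNB3 at 1.31 to 2.10, and all points are open except the 3 of ALB and the 2 of PLXNB3 in HFH - LFH and HFL/HFL - HFL/LFL.

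Inside the groups all 5 genes varied more than most. After subtracting group means from the deposited variance-stabilized values, which are on a log2 scale, the SD was 2.22 for RNASE4, 1.198 for OTC, 0.941 for ZBTB20, 0.834 for PLXNB3 and 0.689 for ALB, with 0.277 as the median of 7626 symbols. RNASE4 ranked 1 from the top, OTC 13, ZBTB20 42, PLXNB3 73 and ALB 153. Without the 7 animals listed at 0, RNASE4 had an SD of 0.812 and ranked 71. Symbols of a similar mean level, 762 or 763 for each gene, had a median SD of 0.280 for ALB, 0.236 for OTC, 0.212 for ZBTB20 and 0.316 for PLXNB3. The spread was the basis of the choice and is not a finding about these genes. Of the whole variance, 87.8% lay within groups for OTC, 89.0% for ZBTB20, 69.9% for RNASE4, 63.5% for PLXNB3 and 36.7% for ALB, while the median symbol had 67.6% within groups. Each group's own SD ran from 0.423 to 1.05 for ALB, 0.814 to 1.53 for OTC, 0.611 to 1.17 for ZBTB20 and 0.565 to 1.12 for PLXNB3. For ALB, OTC, ZBTB20 and PLXNB3 the widest group was HFH.

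HFH shows this spread most plainly. From the highest down, ALB was 64208 CPM in HFH animal 14, 60406 in 18, 58430 in 1, 55326 in 47, 27753 in 9, 21550 in 61, 18959 in 88 and 8693 in 6. In the same order of animals, OTC was 434, 451, 344, 293, 66.3, 89.8, 32.3 and 41.5 CPM, so no HFH animal lay between 89.8 and 293 CPM. In that order ZBTB20 was 19.8, 16.8, 32.3, 26.0, 125, 102, 137 and 92.1 CPM, and PLXNB3 was 10.1, 7.69, 10.3, 3.73, 34.01, 47.6, 21.6 and 55.3 CPM. The animals high in ALB and OTC were those low in ZBTB20 and PLXNB3. LFH had a similar ladder, from animal 25 with 176147 CPM of ALB, 583 of OTC and 35.2 of ZBTB20 to animals 27 with 75868, 56.5 and 197 and 79 with 70532, 78.3 and 152.

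**Figure D3:**
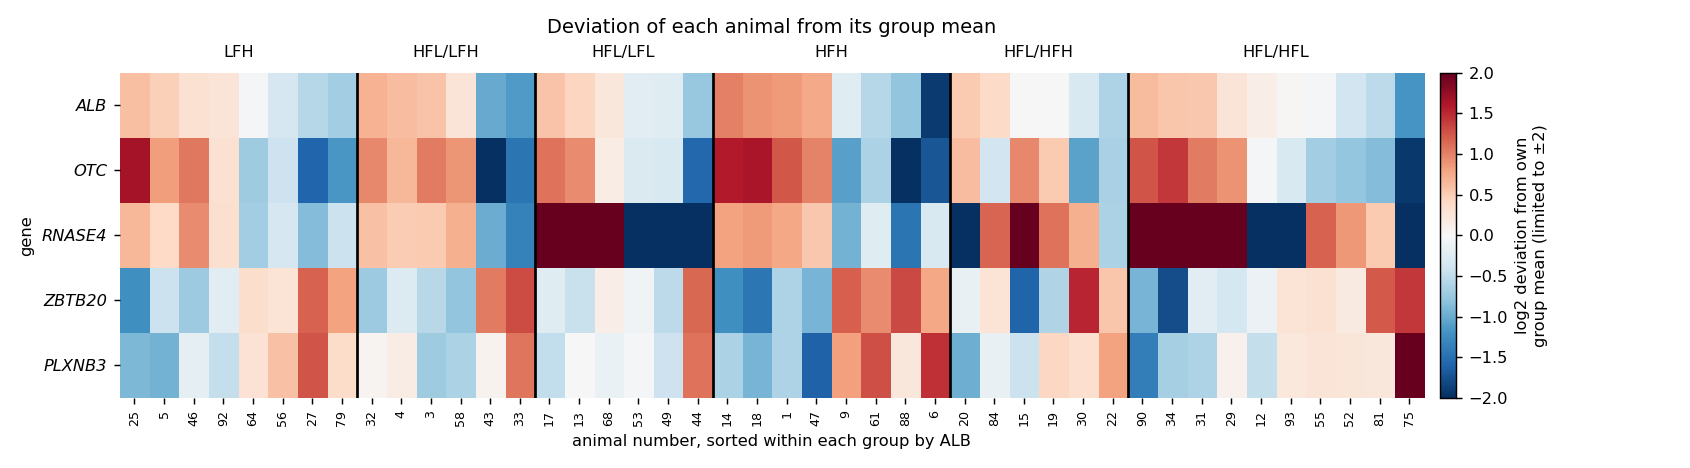
Deviation of each animal (columns, animals numbered as labelled and sorted by ALB within a group) from its group mean for the 5 genes (rows), in log2 units of the variance-stabilized values, with colours limited to 2 units either way. ALB and OTC are red together where ZBTB20 and PLXNB3 are blue in most animals; in the RNASE4 row the 7 libraries listed at 0, in HFL/LFL, HFL/HFH and HFL/HFL, are dark blue and lower their group means, so that most other animals of these groups are red, also some low in OTC.

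ALB and OTC moved together inside the groups, and ZBTB20 and PLXNB3 moved together against them. Over the 44 deviations from group means, Pearson's r was 0.91 between ALB and OTC (Spearman's rho 0.92), 0.77 between ZBTB20 and PLXNB3 (rho 0.78), -0.92 between OTC and ZBTB20 (rho -0.92) and -0.81 between ALB and PLXNB3 (rho -0.83). It was -0.79 between ALB and ZBTB20 and -0.78 between OTC and PLXNB3. All animals of a group share its mean in these values, and these correlations were part of the choice, so no p is given. Without the 2 animals farthest from the median these 6 values stayed between -0.91 and -0.77 or between 0.78 and 0.92. Within single groups OTC and ZBTB20 ranged from -0.99 in LFH to -0.77 in HFL/LFL, ALB and OTC from 0.54 in HFL/HFH to 0.98 in HFL/LFL, and ALB and PLXNB3 from -0.92 in HFL/HFL to -0.63 in HFL/LFH. The weakest values of ALB with OTC and with ZBTB20 (-0.36) were in HFL/HFH, with 6 animals, where ALB itself varied least (SD 0.423). Over all symbols, the 5th and 95th percentile of r were -0.68 and 0.73 with ALB and -0.73 and 0.78 with OTC. They were -0.78 and 0.75 with ZBTB20 and -0.69 and 0.67 with PLXNB3. Values near -0.78 or 0.77 were thus not particular to these genes.

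Counted by animal, 17 of 44 had ALB and OTC above and ZBTB20 and PLXNB3 below their group mean, 17 had the reverse, and 10 were mixed. LFH and HFH held 4 animals of each kind and none mixed. HFL/LFH and HFL/HFH held 2 of each kind and 2 mixed. HFL/LFL held 2 of the first kind, 1 of the reverse and 3 mixed, and HFL/HFL 3, 4 and 3. ALB and OTC lay on the same side of the group mean in 41 animals, and OTC and ZBTB20 in 4.

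RNASE4 followed OTC where it was above 0. With all 44 animals its r was 0.52 with OTC (rho 0.61), 0.44 with ALB (rho 0.54), -0.41 with ZBTB20 and -0.33 with PLXNB3. Without the 7 animals at 0, r was 0.89 with OTC, 0.78 with ALB, -0.85 with ZBTB20 and -0.71 with PLXNB3 (n = 37). In LFH, HFL/LFH and HFH, which hold no library at 0, r with OTC was 0.94, 0.96 and 0.94. The 7 animals at 0 were not alike in the other genes. HFL/HFL 75 had the lowest OTC of the study (19.4 CPM) and the highest ZBTB20 (277 CPM), HFL/LFL 44 the lowest OTC of its group (54.3 CPM), whereas HFL/HFH 20 had the highest ALB of its group (45361 CPM).

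**Figure D4:**
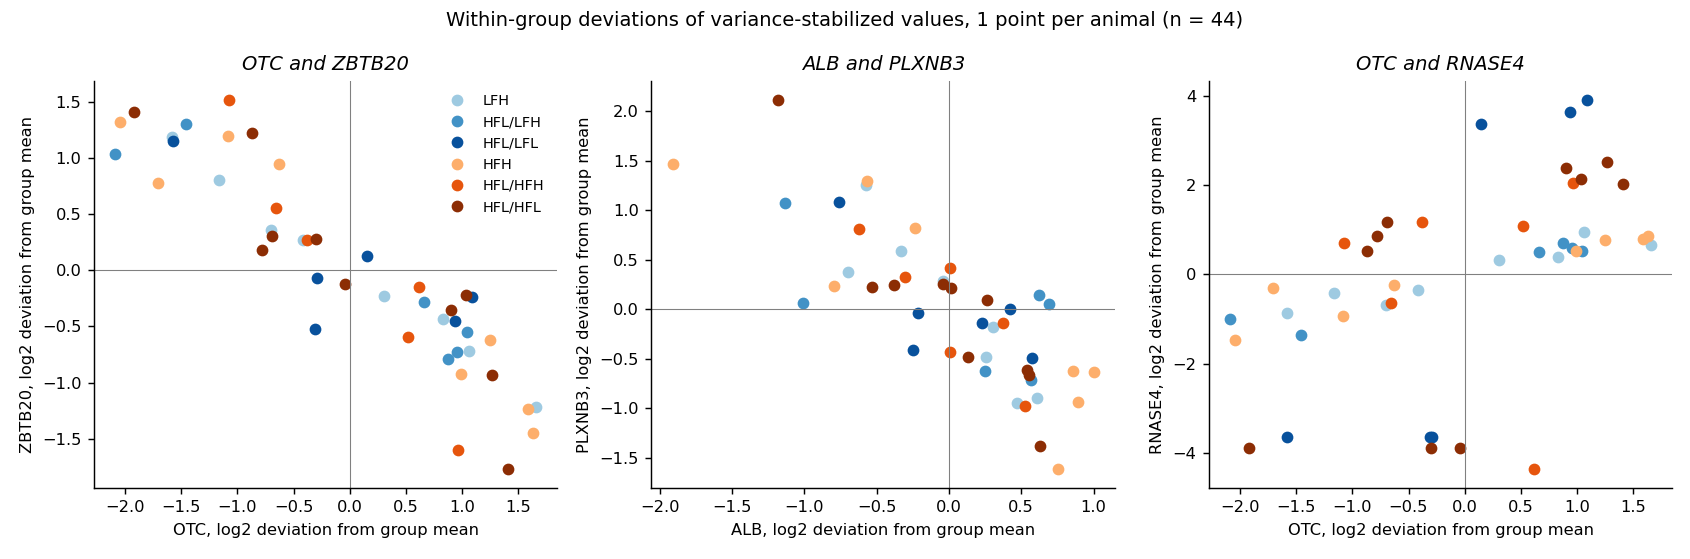
Deviations from the group mean in log2 units for OTC and ZBTB20, ALB and PLXNB3, and OTC and RNASE4, with 1 point per animal coloured by group (n = 44). The points of the first pair fall along a descending band (r = -0.92) and so do those of the second (r = -0.81); in the third the 7 libraries with RNASE4 at 0 lie between -4.36 and -3.64, apart from the rest.

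Measures of the library moved with some of the 5 genes. The number of symbols with a count, 7460 to 8391 per library, correlated within groups with OTC (r = 0.48, rho = 0.40, permutation test within groups, adjusted p = 0.00615 for r and 0.0338 for rho over 15 relations) and with ZBTB20 (r = -0.54, rho = -0.52, permutation test, adjusted p = 0.00255 and 0.0066). Unadjusted p of these permutation tests was 0.00082 and 0.00992 for OTC and 0.00017 and 0.00044 for ZBTB20. Without the 2 libraries farthest from the median number of symbols, r was 0.51 and -0.54. For ALB and PLXNB3 it was 0.31 and -0.30 and did not pass the adjustment (permutation test, adjusted p = 0.0721 and 0.132), nor did RNASE4 by r (0.44, permutation test, adjusted p = 0.0714), while it passed by rho (0.43, permutation test, adjusted p = 0.0338). The log2 total count had rho of 0.39 with RNASE4 and -0.42 with ZBTB20 (permutation test, adjusted p = 0.0338 for both), with r of 0.33 and -0.37 that did not pass (permutation test, adjusted p = 0.0714 and 0.0721). Without the 2 libraries farthest from the median total, its r with the 5 genes was 0.47 for ALB, 0.45 for OTC, 0.40 for RNASE4, -0.49 for ZBTB20 and -0.47 for PLXNB3, against 0.17, 0.29, 0.33, -0.37 and -0.30 with all libraries. The share of counts in the 10 most abundant other symbols, 12.1% to 18.3%, had r of -0.11 to 0.20 and did not pass for any of the 5 genes (permutation test, adjusted p = 0.369 or more). All 15 tests were two-sided with 100000 resamples within groups, and since the genes correlate with each other their results are not separate support. The part of detection and depth in the shared pattern was not tested. Animals were euthanized over several days, which the labels do not give, so the part of day and time was not tested either.

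The genes most like each of the 5 inside the groups, out of 6165 others with a mean of at least 1 CPM, are given by r over the 44 deviations, as a description. ALB was nearest to HSD17B2, which inactivates oestradiol and testosterone (r = 0.93), HABP2, a plasma serine protease (0.93), GC, the vitamin D binding protein of plasma (0.92), IQGAP2, a scaffold protein (0.91), and UGT1A6, a glucuronidation enzyme (0.91). GC, IQGAP2 and UGT1A6 were, like ALB, lower on high fat feed in all 3 feed comparisons, GC by a log2 fold change of -0.95 to -1.18 (edgeR adjusted p = 0.00963, 0.00878 and 0.00228). HSD17B2 was not called in any of them (log2 fold change -0.38 to -0.54, edgeR adjusted p = 0.172, 0.139 and 0.064). Among the genes most opposite to ALB were the transcription factors TEAD2 (-0.88) and MEIS3 (-0.88), and TEAD2 was higher on high fat feed in all 3 comparisons (1.33 to 1.59).

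OTC was nearest to ACAT2, a cytosolic acetyl-CoA acetyltransferase (r = 0.97), COX11, an assembly factor of cytochrome c oxidase (0.97), DAG1, dystroglycan (0.96), PMPCB, of the mitochondrial processing peptidase (0.96), and MIPEP, the mitochondrial intermediate peptidase (0.95). It ran most opposite to CLK2, a kinase of splicing factors (-0.94), RBM3, a cold-inducible RNA-binding protein (-0.93), and GDF1 (-0.92). DAG1 was not called in any feed comparison, while ACAT2 was lower on high fat feed in all 3 (log2 fold change -1.03, -1.23 and -1.16, edgeR adjusted p = 0.0123, 0.0135 and 0.00705).

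ZBTB20 was nearest to BABAM1, of a DNA repair complex (r = 0.94), DPH1, of diphthamide synthesis (0.94), INTS11, the endonuclease of the Integrator complex (0.94), NSUN5, a ribosomal RNA methyltransferase (0.94), and GDF1 (0.93). It ran most opposite to CAPZA2, an actin capping protein (-0.95), MDH1, cytosolic malate dehydrogenase (-0.94), and NDUFS1, a subunit of respiratory complex I (-0.94). None of the 5 genes nearest to ZBTB20 was called in a feed comparison. Among all symbols 17.4% had an r of at least 0.5 with ZBTB20 and 19.5% of -0.5 or below, and with ALB 16.5% and 15.9%. The 5th and the 95th percentile of r with RNASE4 over all symbols were -0.43 and 0.44.

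PLXNB3 was nearest to EVC, a ciliary protein of hedgehog signalling (r = 0.93), CST6, a cystatin (0.91), ZNF827 (0.90), CACHD1 (0.90) and PLXNA3, another plexin (0.89), and most opposite to FGGY, a carbohydrate kinase (-0.86), PLGLB1 (-0.86) and ACAA2, a thiolase of mitochondrial fatty acid oxidation (-0.85). PLGLB1 shares its counts with PLGLB2 and PLG in every animal, so these 3 cannot be told apart. RNASE4 was nearest to SGCB (r = 0.67), ANP32A, which has the same counts as ANP32D (0.65), HEBP1 (0.64), STOM (0.64) and SRSF9 (0.63), and most opposite to CDK11B, with the same counts as CDK11A (-0.66), ZNF276 (-0.66) and SIGIRR (-0.65). Without the 7 animals at 0 the 5 nearest to RNASE4 were PMPCB (0.93), TMBIM6 (0.92), EMC3 (0.92), TOMM70 (0.91) and PCCA (0.91), and the most opposite PTPN6 (-0.92), LPAR2 (-0.91) and INTS11 (-0.90), so its neighbours depended on those animals.

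Of 24 plasma proteins listed, ALB included, 11 were tested. Of the 10 besides ALB, 9 were lower in HFH than in LFH (median log2 fold change of the 10 -0.97), 6 were lower in HFL/HFH than in HFL/LFH (-0.86), and 7 were lower and 1 higher in HFL/HFL than in HFL/LFL (-0.84), beside the 21.6%, 16.5% and 18.1% of all symbols that were lower. GC, AMBP (the precursor of alpha-1-microglobulin), APOH, APOA2 and TTPA, the alpha-tocopherol transfer protein, were lower in all 3, TTPA by -2.34, -2.15 and -1.38. VTN, vitronectin, was lower in 2 of the 3, SERPINA1 and HPX, hemopexin, in 2, and AHSG, fetuin-A, in 1. HPX was also higher in HFL/LFL than in HFL/LFH (1.29, edgeR adjusted p = 0.0438), and APOA2 lower in HFL/LFL than in LFH (edgeR adjusted p = 0.0418), comparisons in which ALB was not called. The HPX call was lost in the fit of only HFL/LFL and HFL/LFH, which called 0 symbols. APOE was higher in HFL/HFL than in HFL/LFL (log2 fold change 0.57, edgeR adjusted p = 0.00308). Inside the groups 7 of the 10 had an r with ALB of at least 0.5, beside 16.5% of all symbols, from 0.55 for AHSG to 0.92 for GC, while APOA2 (0.06) and APOE (-0.02) did not follow it. APOA2 thus fell with the feed as ALB did but did not share its variation between animals of a group.

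Besides OTC, 3 enzymes of ammonia and amino acid handling are described. GOT1, an aspartate aminotransferase, and OAT, ornithine aminotransferase, were lower on high fat feed in all 3 comparisons, OAT by log2 fold changes of -1.43, -1.63 and -1.90 (edgeR adjusted p = 2.36e-06, 6.33e-06 and 2.38e-08). GLUL, glutamine synthetase, was, of the feed comparisons, lower only in HFH than in LFH (-0.85, edgeR adjusted p = 0.000466), was also lower than in LFH in HFL/LFH (-1.02, edgeR adjusted p = 0.0149) and HFL/LFL (-1.38, edgeR adjusted p = 9.64e-05), had a log2 fold change of 0.37 between HFL/HFL and HFL/LFL that did not pass, and had an r of -0.45 with ALB. All 3 described besides OTC were thus lower in HFH than in LFH, and 2 of 3 in each of the other feed comparisons, beside 21.6%, 16.5% and 18.1% of all symbols and no call for OTC, though the difference between them and OTC was not tested. Inside the groups OTC had an r of 0.58 with GOT1 and 0.28 with OAT. The other urea cycle enzymes were not analysed here.

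Of 3 ribonuclease genes tested besides RNASE4, RNASE10 was lower on high fat feed in all 3 comparisons (log2 fold change -2.91, -1.99 and -1.39), while RNASE6 and RNASE13 were not called. Their r with RNASE4 was -0.07, -0.02 and -0.03. Of 25 hepatocyte transcription factors listed, ZBTB20 included, 7 were tested. Of the 6 besides ZBTB20, 5 were lower in HFH than in LFH (FOXA3, ONECUT2, RXRA, ZHX2 and DBP), 3 in HFL/HFH than in HFL/LFH (ONECUT2, RXRA and ZHX2) and 4 in HFL/HFL than in HFL/LFL (FOXA3, ONECUT2, RXRA and ZHX2), beside the 21.6%, 16.5% and 18.1% of all symbols that were lower. FOXA3, a forkhead factor, had an r of 0.62 with ALB and -0.64 with ZBTB20, and the r of the 6 with ZBTB20 ran from that value to 0.06 for DBP, a circadian factor.

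Of 19 genes of plexins, semaphorins and their co-receptors besides PLXNB3, 9 were higher and 2 lower in HFH than in LFH, 8 and 3 in HFL/HFH than in HFL/LFH, and 6 and 2 in HFL/HFL than in HFL/LFL, with median log2 fold changes of 0.41, 0.01 and 0.42. Of all symbols 27.5% were higher and 21.6% lower in the first, 19.4% and 16.5% in the second, and 19.6% and 18.1% in the last of these comparisons. PLXNA1 (2.30, 2.06 and 1.49), PLXNA3 (1.49, 1.23 and 1.13), PLXND1 (0.41, 0.50 and 0.58), SEMA3C (2.82, 1.80 and 1.53) and MET, the hepatocyte growth factor receptor (0.42, 0.42 and 0.42), were higher on high fat feed in all 3. NRP2 and SEMA3F were higher in the first and second of these comparisons, SEMA4A in both comparisons of the groups that began on HFL feed, and SEMA3D and SEMA4F in the first alone, while PLXNA4, with a mean of 0.656 CPM, was lower in the second. PLXNC1 was lower in all 3 (-0.62, -0.99 and -0.62), as was SEMA3E, which had a mean of 0.386 CPM and 0 in most libraries, so no fold is given. PLXNA3 followed PLXNB3 inside the groups (r = 0.89, and -0.77 with ALB) and PLXNC1 ran against it (-0.72, and 0.79 with ALB), while PLXNA1, called by the feed like PLXNB3, did not follow it (0.01).

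**Figure D5:**
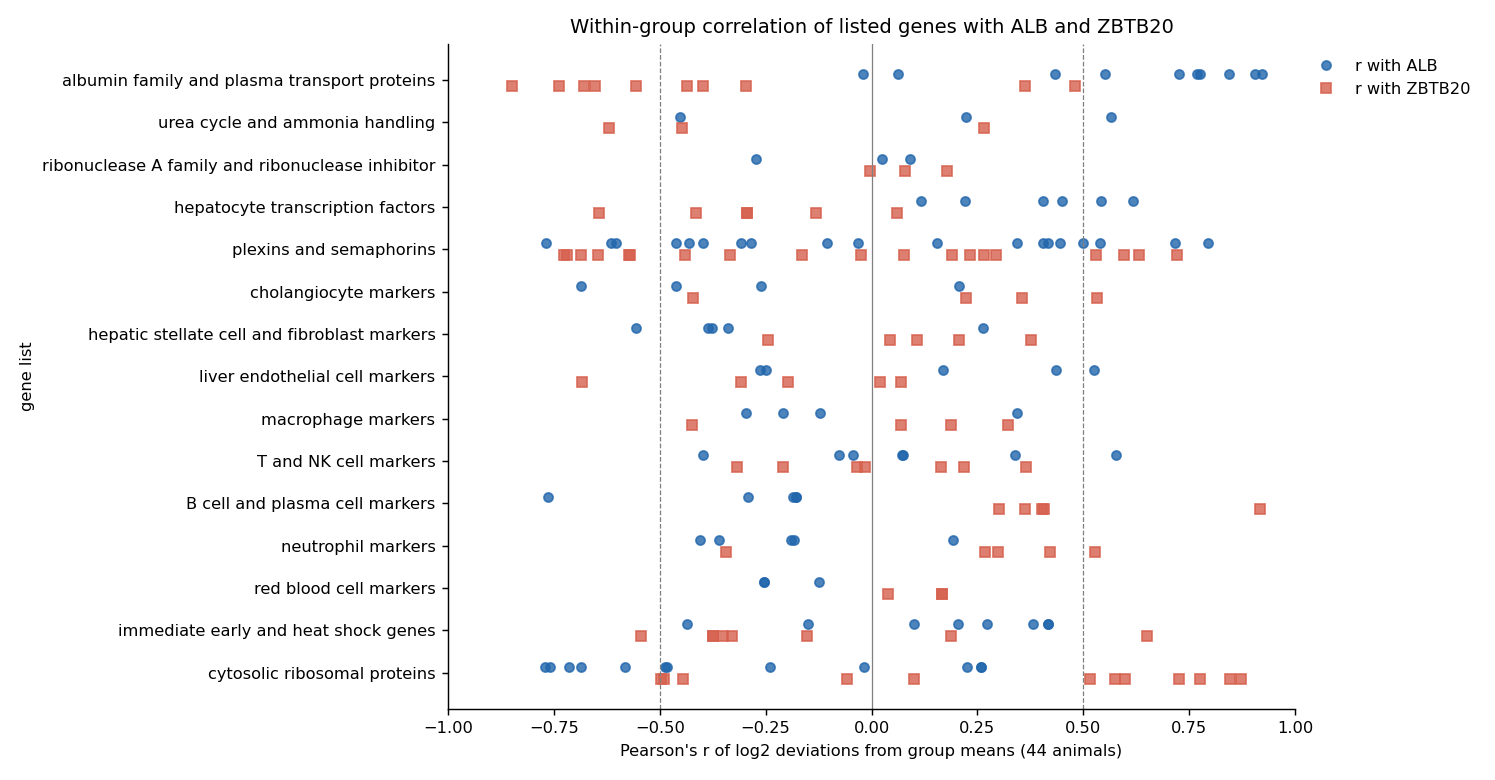
Pearson's r, over 44 deviations from group means, of each listed gene with ALB (blue circles) and with ZBTB20 (red squares), 1 row per gene list, with dashed lines at 0.5 and -0.5. Plasma protein genes lie mostly to the right for ALB and to the left for ZBTB20, cytosolic ribosomal proteins the other way, and most cell type markers between the dashed lines.

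Some markers of other liver cells were called in the feed comparisons, where 49.1%, 35.9% and 37.7% of all symbols were called. All 4 cholangiocyte markers tested of 7 listed (KRT7, KRT19, EPCAM and CLDN4) were higher on high fat feed in the 3 comparisons, and their summed level was 115 to 405 CPM in the low fat groups and 666 to 1399 in the high fat groups. Of 5 stellate cell and fibroblast markers tested of 10 listed, 3 (RGS5, PDGFRB and LUM) were higher and 1 (LRAT) lower in each, with sums of 393 to 979 and 756 to 2619 CPM. Red blood cell markers (HBA1, with the same counts as HBA2, and ALAS2) were higher in all 3 comparisons, with sums of 89.9 to 1789 and 207 to 13311 CPM. Of 5 endothelial markers 1 was higher (VWF) and 1 lower (LYVE1) in HFH than in LFH, 1 was lower (LYVE1) in HFL/HFH than in HFL/LFH, and 4 were lower (CDH5, VWF, LYVE1 and KDR) in HFL/HFL than in HFL/LFL, with sums of 600 to 939 and 467 to 693 CPM. Of 4 macrophage markers tested of 10 listed, 2 were higher (TREM2 and LYZ) and 1 lower (CD5L) in HFH than in LFH and in HFL/HFH than in HFL/LFH, and 1 and 1 (TREM2 and CD5L) in HFL/HFL than in HFL/LFL, with sums of 142 to 456 and 84.7 to 351 CPM. Among the latter CD163 was at 0 in 8 animals and TREM2 in 5. Of 7 T and NK cell markers 1 was higher (CD8A) and 1 lower (CD3E) in HFH than in LFH and in HFL/HFH than in HFL/LFH, and 1 was lower (PRF1) in HFL/HFL than in HFL/LFL, with sums of 126 to 285 and 61.3 to 184 CPM. Of 5 neutrophil markers none was called between HFH and LFH, 3 were higher in HFL/HFH than in HFL/LFH (S100A8, S100A9 and CXCR2) and 1 in HFL/HFL than in HFL/LFL (MPO), and the sums were 3.46 to 44.4 and 4.49 to 53.1 CPM, with MPO at 0 in 24 animals. The part of other cells in the ALB and PLXNB3 differences was not tested.

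Inside the groups the marker sums had an r with ALB between -0.75 and 0.56. The cholangiocyte sum had an r of -0.42 with ALB and 0.55 with PLXNB3, where KRT7 alone had -0.69 and 0.83. CLDN4 had 0.21 with ALB. The single markers lowest and highest by r with ALB were ACTA2 (-0.56) and LRAT (0.26) for stellate cells and fibroblasts, VWF (-0.26) and LYVE1 (0.53) for endothelium, TREM2 (-0.30) and CD5L (0.34) for macrophages, CD3D (-0.40) and CD3E (0.58) for T and NK cells, and CSF3R (-0.41) and MPO (0.19) for neutrophils. The stellate and fibroblast sum had -0.48 and 0.49, the endothelial sum 0.21 and -0.20, the macrophage sum -0.09 and 0.03, the T and NK cell sum 0.56 and -0.59, the neutrophil sum -0.41 and 0.29 and the red blood cell sum -0.25 and 0.37. The T and NK cell sum was mostly CD3E (mean 112 CPM, r of 0.58 with ALB), while CD3D had -0.40, CD3G -0.08, CD2 0.07, CD8A 0.08, CD4 -0.04 and PRF1 0.34 with ALB. The B cell sum over 5 markers had -0.75 with ALB and 0.92 with ZBTB20, and ran from 287 to 547 CPM in the low fat and 269.7 to 601 CPM in the high fat groups. This sum was mostly CD79A (mean 379 CPM, r of 0.92 with ZBTB20 and -0.90 with OTC), and the other 4 were MS4A1 (mean 3.005 CPM, r of 0.40 with ZBTB20), CD79B (2.27 CPM, 0.36), JCHAIN (10.9 CPM, 0.41) and MZB1 (0.825 CPM, 0.30). The edgeR adjusted p of the 5 in the feed comparisons was 0.103 or more. The part of B cells in the spread of ZBTB20 was not tested.

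Of 12 cytosolic ribosomal protein genes tested, 7 had an r of at least 0.5 with ZBTB20 and 5 of -0.5 or below with ALB, where 17.4% and 15.9% of all symbols did. RPL19 (0.87), RPLP2 (0.85) and RPL32 (0.78) were nearest to ZBTB20, while RPL4 (-0.50) and RPS27A (-0.49) ran against it. Their summed level stayed within 8181 and 12087 CPM in all 44 animals and had an r of -0.66 with ALB and 0.66 with ZBTB20. Of 8 immediate early and heat shock genes none had an r with ALB past 0.5 either way (-0.44 for IER3 to 0.42 for HSPA1A, which has the same counts as HSPA1B), while with ZBTB20 IER3 had 0.65 and HSPA8 -0.54, and with OTC IER3 had -0.60, and their summed r was 0.36 with ALB and -0.48 with ZBTB20. In HFH against LFH, ATF3, HSPH1 and HSPA8 were higher, and DUSP1 and HSPA1A lower. ATF3 and IER3 were higher and DUSP1 lower in HFL/HFH than in HFL/LFH and in HFL/HFL than in HFL/LFL. HSPA1A was lower in the former of these only, and HSPH1 and HSPA8 were called in neither. Of all symbols, 49.1%, 35.9% and 37.7% were called in these feed comparisons, in the order named.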

How the data were processed

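Liver RNA of 44 animals was sequenced by the authors after poly(A) selection. Per the labels and the study's methods, they trimmed reads with Trimmomatic 0.38.0, mapped them with HISAT2 2.1.0 to the Ensembl guinea pig genome, quantified them with StringTie 2.1.1 and named genes by human orthologues. The deposited counts per symbol are whole numbers without normalization, and how StringTie's output became counts is not given in the sources used here. The deposited log2 values are variance-stabilized with DESeq2 by the authors. A shared ortholog symbol, or reads shared with a close copy, cannot be resolved.

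Differences between groups came from edgeR 4.0.16 under R 4.3.3 (TMM, quasi-likelihood F test, all 44 animals, 6 group means, 38 residual degrees of freedom) over symbols with a total of at least 200, with Benjamini-Hochberg adjustment over 7629 symbols and 0.05 as the threshold. In all, 236 rows without a symbol, 2.30% to 3.07% of a library's counts, were left out of library sizes and tests. Correlations used Python 3.11.15 with scipy 1.17.1. The fits were tested on simulated data. Alternatives were RLE size factors, no filter, DESeq2 1.42.0, only the groups compared, log2(CPM + 1) with a pseudocount of 1, Spearman's rho, one kind of feed, and each animal left out. Rows without a symbol kept, and the 7 animals with RNASE4 at 0 left out, were added after seeing the data. The members and gene lists were chosen with earlier results of these data known, so no list or comparison is independent support. Counts by list cover only the genes tested. These were 4 of 19 listed for the urea cycle and ammonia, 4 of 14 ribonuclease genes and 20 of 32 plexins and semaphorins. They were 5 of 9 endothelial, 7 of 8 T and NK cell, 5 of 6 neutrophil and 3 of 6 red blood cell markers. For ribosomal proteins they were 12 of 22, and for immediate early and heat shock genes 8 of 14. Named genes are the 5 members, for each the 5 most like and 3 most opposite by r, the extremes of each list by r with ALB, and genes of the 5 families called where a member was. Some genes that the rule or the lists would name are not reported here. No coordinates are given, since the annotation at hand is of another build. CPM precision is set by 3 counts, 0.0641 to 0.174 CPM.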

Additional observations from a re-analysis of the deposited data

Results flagged for a closer look

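Each of the 5 genes was checked in each of the 6 groups for a highest or lowest animal that stood apart by Dixon's test, 30 checks in all. Chance flags about 1 in 20 groups of any gene, but these genes were chosen for their spread inside groups, so the result is a description and not a test. Both animals that passed were high in PLXNB3. In HFL/LFL, animal 44 had 12.6 CPM, and the next animal 4.23 CPM. In HFL/HFL, animal 75 had 56.8 CPM, and the next 13.03 CPM. Both are among the 7 animals in which RNASE4 is listed at 0, and both had the lowest OTC of their group (54.3 and 19.4 CPM) and the highest ZBTB20 (164 and 277 CPM).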

How the results depend on the processing

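ALB kept its direction and its side of the threshold in the 3 feed comparisons under every alternative run, and no value of the 5 genes that passed the threshold changed sign. PLXNB3 did not keep its side. Fitted on only the groups compared, 2 of the 5 genes were called between HFL/HFH and HFL/LFH, where PLXNB3 had an edgeR adjusted p of 0.031, and without a filter on low counts 1 was called between HFL/HFL and HFL/LFL, where PLXNB3 had 0.0525. With any 1 animal dropped, each of these comparisons had 1 to 2 calls. Of the single values of the 5 genes, 213 kept their side under other settings and 630 with 1 animal left out, while 1 and 9 lost the threshold and 1 and 1 passed it. Fewer animals share the estimate of spread in the fits of only the groups compared. The cause of these changes was not tested.

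Over all symbols, DESeq2 called 80 between HFL/LFL and HFL/LFH, 61 between HFL/LFH and LFH, and 3 for the interaction, against 17, 27 and 0 in edgeR. The fit of only the groups compared called 0 between HFL/LFL and HFL/LFH, 0 between HFL/HFL and HFL/HFH, 3 between HFL/LFH and LFH and 262 between HFL/LFL and LFH. With 1 animal left out the counts were 3 to 53 between HFL/LFL and HFL/LFH, 0 to 1 between HFL/HFL and HFL/HFH, 19 to 53 between HFL/LFH and LFH, 268 to 765 between HFL/LFL and LFH, and 0 to 1 for the interaction.

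On log2(CPM + 1) the SD within groups was 2.50 for RNASE4 and 1.004 for PLXNB3, and on the variance-stabilized values without the animals listed at 0 it was 0.812 for RNASE4. On the low fat feeds alone r was 0.95 for ALB and OTC, 0.62 for ALB and RNASE4, -0.88 for ALB and ZBTB20, -0.72 for ALB and PLXNB3 (-0.86 on the high fat feeds alone) and 0.84 for ZBTB20 and PLXNB3. Spearman's rho of RNASE4 and ZBTB20 was -0.54. Without the animals listed at 0, RNASE4 had an r of 0.78 with ALB, 0.89 with OTC, -0.85 with ZBTB20 and -0.71 with PLXNB3. No paired analysis was possible because the numbers in the labels name single animals and no number recurs in another group.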
